A study of Homo sapiens with 16 samples.

Results

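The endoplasmic reticulum (ER) folds secreted and membrane proteins with the help of chaperones and disulfide isomerases, and sends proteins that fail to fold to the proteasome. Sensors in its membrane watch over this load: PERK, which acts through the translation factor eIF2α and the transcription factor ATF4, ATF6, which is cleaved to a transcription factor, and IRE1, which splices the mRNA of XBP1. ATF6 and spliced XBP1 switch on the folding and degradation machinery, whereas ATF4 is also switched on by stresses outside the ER and drives amino acid synthesis and cell death genes. The 36 genes described here are the chaperones, isomerases, degradation factors, translocon and transport genes and sensors that ATF6 and XBP1 are known to serve. They were taken from the count table by symbol, and all 36 of the list were found among the 25369 genes of the table. The question was whether these genes followed the ATF4 response in the same cells.

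Both cell lines, TPC1 and K1, were derived from papillary thyroid carcinoma. Cells were kept for 24 h in vehicle (0.2% DMSO), in 10 µM nutlin, which stops MDM2 from binding and degrading p53, in 25 µM GSK2830371, an inhibitor of the phosphatase PPM1D that restrains p53, or in both drugs (the combination). Each of the 8 groups had 2 poly(A) RNA libraries, 16 in all, with TPC1 grown in RPMI and K1 in DMEM medium, so that line and medium cannot be told apart. TPC1 libraries are named by the numbers in the table, 1 and 3, and K1 libraries by 1 and 2. Totals ran from 28888686 to 37161241 counts in K1 and from 30789887 to 76648552 in TPC1, where every library numbered 3 was deeper than every library numbered 1. Of the thyroid follicular markers reported here, PAX8 and FOXE1 were present in every library of both lines, whereas DIO1, NKX2-1, SLC5A5 and TSHR stayed under 1 CPM (counts per 1000000 counts of a library). The 4 leukocyte markers summed to at most 0.242 CPM and 5 fibroblast markers to between 2.13 and 9.32 CPM. Of 6 epithelial markers, CDH1, EPCAM and KRT19 stayed under 1 CPM in both lines, and the other 3 were present in every library. KRT8 ran from 305 to 516 CPM in TPC1 and 613 to 848 in K1, and KRT18 from 117 to 391 and 282 to 469. KRT7 was low, at 4.03 to 7.24 CPM in TPC1 and 2.30 to 2.98 in K1. These were cultures of 1 line each, in which fewer cells and less RNA per cell cannot be told apart.

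Values below are CPM scaled by the trimmed mean of M values (TMM) within each line, each with both libraries of a group (n = 2). A gene was called when edgeR's quasi-likelihood test gave an adjusted p under 0.05 and the fold change was above 1.5. In every comparison the share of all tested genes that was called is given beside the count of the 36. Shares of all genes at an unadjusted p under 0.05 are not given, so counts by that rule cannot be set against them. DERL3, which encodes a derlin of the degradation channel found in secretory cells, had 0 to 2 counts in each K1 library and was not tested there, leaving 35 genes.

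The promoters of 4 genes are shown first: HSPA5, the most used readout of ER stress, and the 3 others with the largest called change between the combination and nutlin in TPC1 (none was called in K1). They are the 250 bases before the RefSeq start (GRCh38.p14) on the gene's strand, 5′ to 3′, with HSPA5 at chr9:125241344-125241593 (minus strand), XBP1 at chr22:28800570-28800819 (minus), ERN1 at chr17:64130145-64130394 (minus) and DNAJB9 at chr7:108569624-108569873 (plus). Capitals mark the fixed letters of an ER stress response element (ERSE), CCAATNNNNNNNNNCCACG, which ATF6 and NF-Y are known to bind.
HSPA5: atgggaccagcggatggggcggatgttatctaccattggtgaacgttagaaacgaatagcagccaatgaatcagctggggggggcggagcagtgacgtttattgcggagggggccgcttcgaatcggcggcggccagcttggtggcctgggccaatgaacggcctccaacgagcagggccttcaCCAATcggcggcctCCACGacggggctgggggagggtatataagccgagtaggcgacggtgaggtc
XBP1: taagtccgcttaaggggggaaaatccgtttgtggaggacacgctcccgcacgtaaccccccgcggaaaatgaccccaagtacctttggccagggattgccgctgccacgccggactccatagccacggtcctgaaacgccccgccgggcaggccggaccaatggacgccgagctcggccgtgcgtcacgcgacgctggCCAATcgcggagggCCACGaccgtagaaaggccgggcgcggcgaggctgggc
ERN1: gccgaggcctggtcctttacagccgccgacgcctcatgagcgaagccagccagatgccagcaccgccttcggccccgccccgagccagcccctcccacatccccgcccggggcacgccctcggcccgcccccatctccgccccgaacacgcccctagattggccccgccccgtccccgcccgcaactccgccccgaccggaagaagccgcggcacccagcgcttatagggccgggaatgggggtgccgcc
DNAJB9: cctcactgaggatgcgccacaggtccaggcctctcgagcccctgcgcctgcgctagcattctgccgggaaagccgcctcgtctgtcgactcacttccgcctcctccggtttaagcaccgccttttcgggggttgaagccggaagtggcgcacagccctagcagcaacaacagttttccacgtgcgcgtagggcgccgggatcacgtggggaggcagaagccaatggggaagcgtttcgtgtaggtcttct

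HSPA5 and XBP1 each held 1 exact ERSE, beginning 66 and 52 bases before the start. ERN1 and DNAJB9 held none of the 4 motifs searched, which says only that these letters are not in the window. The motifs were ERSE, ERSE-II (ATTGG and CCACG with any base between them), the UPRE core (TGACGTG) known from XBP1 and ATF6, and the composite C/EBP-ATF element (TGATGNAA) known from ATF4, each on both strands in the 300 bases that also take in the first 50 after the start. In HYOU1 the UPRE core match overlaps an ERSE-II match. A promoter was held for 32 of the 36 genes (not PDIA3, DERL1, DERL3 or SEC24D). ERSE was in 7 of the 32 (HSPA5, HSP90B1, CALR, CANX, CRELD2, XBP1 and SERP1), or 21.9%, against 0.0806% of 27305 promoters of all genes. ERSE-II was in 3 (SDF2L1, HYOU1 and HERPUD1), or 9.38%, against 0.0549%, and the UPRE core in 2 (DNAJC10 and HYOU1), or 6.25%, against 546 of the 27305. Among ER genes outside the 36, the UPRE core was in 5 of 38 folding and degradation genes with a promoter (13.2%). It was in 7 of 34 translocon, processing and COPII genes (20.6%), both above the share of the 32. ERSE and ERSE-II were in 0 of either list. The C/EBP-ATF element was in HERPUD1 alone, 3.12% against 3.67% of all promoters, whereas 6 of 32 ATF4 targets with a promoter held it (18.8%).

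The first comparison asked what p53 activation by nutlin did to these genes. In TPC1, 9 of 36 rose and 1 fell, where 17.5% of all 15273 tested genes rose and 18% fell. The 9 came from different parts of the machinery: the co-chaperones DNAJB9 and CRELD2, the lectin chaperone CALR, the degradation factors EDEM1, EDEM2 and OS9, the translocon subunit SEC61A1, the COPII coat subunit SEC31A and the sensor gene ERN1. SEC31A, part of the outer coat of vesicles that leave the ER, was at 178 and 183 CPM in DMSO and at 367 and 366 CPM in nutlin, a log2 fold change of 1.02 ± 0.07 (SE; adjusted p = 3.41e-06). OS9, a lectin that picks misfolded glycoproteins for degradation, went from 119 and 121 to 212 and 218 CPM (0.84 ± 0.07, adjusted p = 7.41e-06). Neither gene's groups overlapped, and in both the libraries of a group lay within a few percent of each other.

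EDEM2, which trims mannose from glycoproteins that are to be degraded, stood at 26.4 and 32.7 CPM in DMSO and at 55.5 and 56 CPM in nutlin (0.91 ± 0.11, adjusted p = 7.52e-05). Its relative EDEM1 went from 86.3 and 71.4 to 142 and 130 CPM (0.79 ± 0.12, adjusted p = 0.00047). SEC61A1, the pore through which new proteins enter the ER, went from 510 and 504 to 872 and 869 CPM (0.78 ± 0.07, adjusted p = 1.46e-05). Among the 10 chaperones and co-chaperones nutlin lifted 2 in TPC1, CRELD2 by 0.80 ± 0.16 and DNAJB9 by 0.63 ± 0.13. The DNAJB9 call was lost without nutlin library 3 (0.43, adjusted p = 0.0447). ERN1 was called at 0.89 ± 0.33 (adjusted p = 0.0443), close to the threshold. It lost the call without nutlin library 1 (0.61), DMSO library 3 (0.47) or either GSK2830371 library (0.89 each), and by DESeq2 (adjusted p = 0.081). With the library number fitted as a block ERN1 kept the call. XBP1 was the gene that fell, by 0.73 ± 0.15 on the log2 scale (adjusted p = 0.00224), from 83.7 and 99.4 CPM to 51.6 and 58.7 CPM. Without DMSO library 3 its log2 fold change was -0.58, under the fold required.

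In K1, nutlin gave small rises across the list. All 35 tested genes had a log2 fold change above 0, between 0.03 and 0.62 with a median of 0.30, while the median of all genes was -0.00. At an adjusted p under 0.05 and any size, 29 of the 35 rose, against 13.5% of all 15900 genes, and in TPC1 15 of 36 rose by that rule against 27.3%. Of the 15, 13 were among the 29 in K1, but that list held most of the 35 genes, so a large overlap came with its length. Past the 1.5-fold limit were 2, SEC31A (246 and 242 CPM in DMSO, 363 and 384 in nutlin, 0.62 ± 0.05, adjusted p = 9.7e-07) and HYOU1 (301 and 304, then 447 and 469 CPM, 0.60 ± 0.05, adjusted p = 8.97e-07). Among all genes in K1, 3.84% rose and 5.43% fell past both limits. None of the 35 fell by edgeR or DESeq2, and none by edgeR at an unadjusted p under 0.05. HYOU1, the large ER chaperone that exchanges nucleotide on HSPA5, and SEC31A were just under 1.5-fold without nutlin library 2 (0.56 and 0.57).

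**Figure D1:**
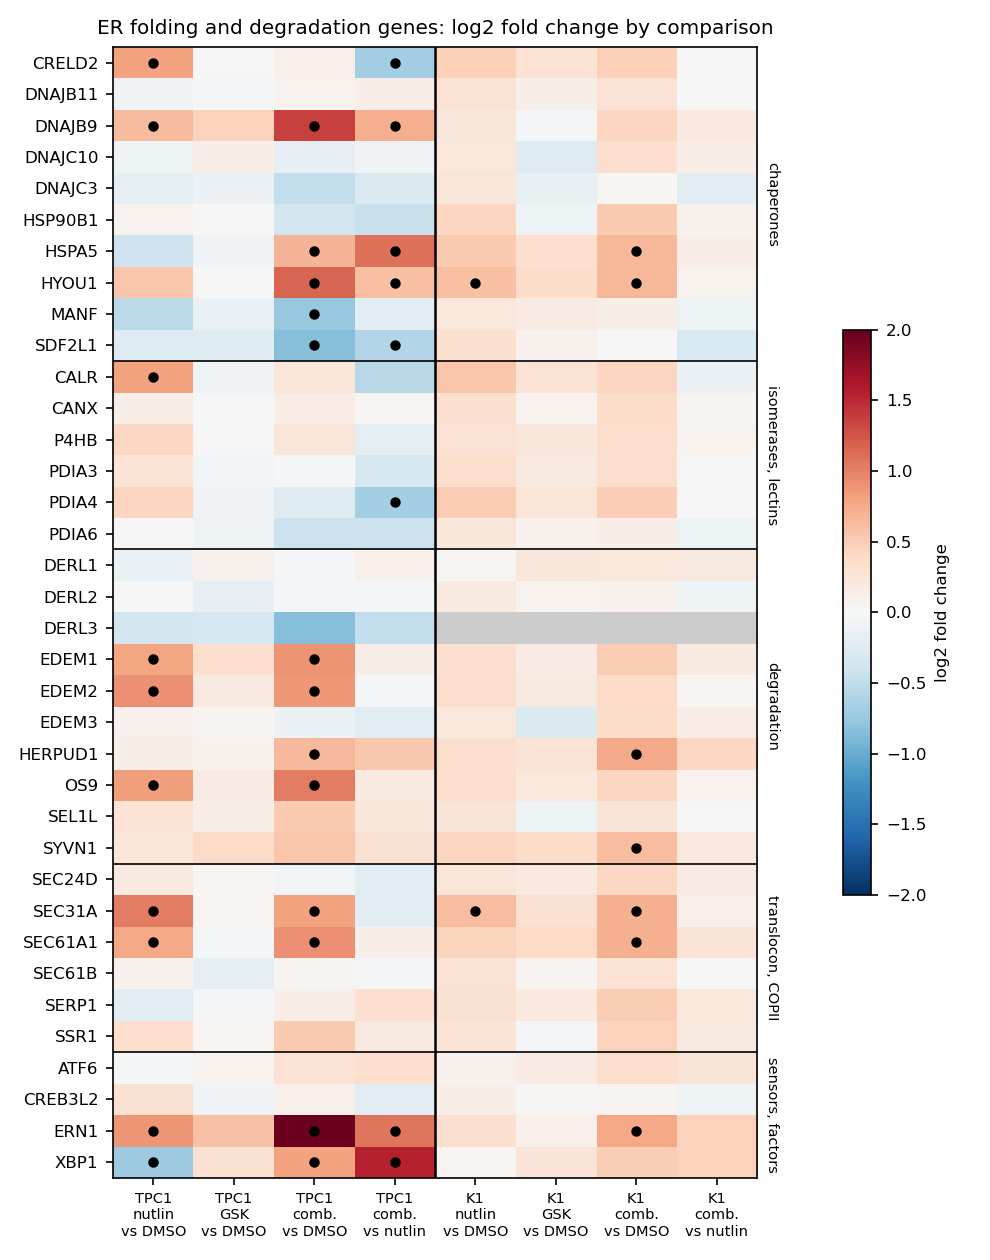
Log2 fold change (colour) of the 36 genes, in rows grouped by role, in 4 comparisons of TPC1 (left) and K1 (right); dots mark called genes and grey marks DERL3, not tested in K1. TPC1 columns hold strong red and blue side by side, with XBP1 and HSPA5 blue under nutlin and red against nutlin, whereas the K1 columns for nutlin and the combination against DMSO are above 0 in every tested row, by no more than 0.78.

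GSK2830371 alone called none of the 36 genes in TPC1 (0.72% of all genes rose, 0.681% fell). edgeR gave an unadjusted p under 0.05 for 4 that were higher and 2 that were lower, and DESeq2 called none either. With the library number as a block, ERN1 was called (0.65, adjusted p = 0.00301). SYVN1, the ubiquitin ligase at the core of the degradation complex, reached an adjusted p of 0.0313 at 0.38 ± 0.07, under the fold required (41.9 and 40.8 CPM in DMSO, 54.7 and 52.6 in GSK2830371). In K1 none was called either, by edgeR or DESeq2, where 0.736% of all genes rose and 1.5% fell. There edgeR gave an unadjusted p under 0.05 for 20 higher and 2 lower, and an adjusted p for 17 higher and 2 lower, against 8.38% and 10.8% of all genes. The highest of the 17 was SEC61A1 (840 and 882 CPM in DMSO, 1169 and 1097 in GSK2830371, 0.40 ± 0.06). The 2 lower genes were EDEM3 (76.7 and 74.8, then 58.5 and 64.9 CPM) and DNAJC10, an ER disulfide reductase (182 and 175, then 142 and 157 CPM). Both transcripts are low in GC (38.4% and 37.5%), and values corrected for GC and length are not given here for this comparison. For the combination against GSK2830371 in K1, that correction took EDEM3 from 0.66 to 0.45 and DNAJC10 from 0.59 to 0.21.

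Under the combination, compared with DMSO, more of these genes rose than fell in both lines. In TPC1, 11 of 36 rose and 2 fell, where 22.5% of all genes rose and 21.7% fell. In K1, 7 of 35 rose and 0 fell, where 7.62% rose and 8.09% fell, and edgeR gave no lower gene at an unadjusted p under 0.05, nor did DESeq2 call one. Shared between the 11 and the 7 were 6 genes, 54.5% of the TPC1 list and 85.7% of the K1 list: HSPA5, HYOU1, HERPUD1, SEC61A1, SEC31A and ERN1. By adjusted p alone, 16 rose in TPC1 (32% of all genes did), and all 16 were among the 29 that rose in K1 (21% of all genes). That K1 list held most of the 35 genes, so a large overlap came with its length. The overlap between lines over all genes is not given here for either rule. The median of the tested genes was 0.14 in TPC1 and 0.41 in K1, beside 0.00 and 0.01 over all genes.

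HSPA5 encodes BiP, the chief ER chaperone, which also holds the sensors inactive (GRCh37 chr9:127997132-128003661, minus strand). In TPC1 it was at 1409 and 1488 CPM in DMSO, 1082 and 1100 in nutlin, 1336 and 1426 in GSK2830371 and 2368 and 2296 in the combination. Nutlin thus sat lowest, by 0.41 ± 0.08 against DMSO on the log2 scale (adjusted p = 0.00198, under 1.5-fold), and the combination stood above every other library. In K1 the 4 groups read 1123 and 1088, 1616 and 1577, 1431 and 1345, and 1849 and 1651 CPM. Here nutlin and the combination were both higher than DMSO, by 0.53 ± 0.06 (adjusted p = 1.72e-05) and 0.66 ± 0.06 (adjusted p = 1.15e-06), and the second was called. Without combination library 1 it was 0.57, under the fold required.

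HYOU1 went from 293 and 272 CPM in TPC1 DMSO to 658 and 606 in the combination, 2.24-fold (1.16 ± 0.08, adjusted p = 2.08e-06), and in K1 from 301 and 304 to 489 and 472 CPM (0.67 ± 0.05, adjusted p = 1.55e-07). HERPUD1, an ER membrane protein that recruits the degradation machinery, went from 93.6 and 102 to 147 and 160 CPM in TPC1 (0.65 ± 0.08, adjusted p = 8.7e-05) and from 55.8 and 53.2 to 96.8 and 88.4 CPM in K1 (0.76 ± 0.07, adjusted p = 1.47e-06). Both genes stood highest in the combination in both lines, though in K1 the lower combination library of HYOU1, at 472 CPM, was next to the higher nutlin library at 469. HSPA5, HYOU1 and HERPUD1 have an exact ERSE or ERSE-II in the window searched, whereas SEC61A1, SEC31A and ERN1, the other shared genes, have neither. In TPC1, 4 of 10 genes with either motif rose and 1 fell, and 7 of 22 with neither rose and 1 fell (22.5% of all genes rose). In K1, 3 of the 10 and 4 of the 22 rose (7.62% of all genes).

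ERN1 encodes IRE1α, the nuclease that splices XBP1 mRNA (GRCh37 chr17:62116440-62208179, minus strand). Its counts were low in TPC1, at 5.85 and 3.11 CPM in DMSO, 9.68 and 6.65 in nutlin, 7.28 and 5.92 in GSK2830371 and 20.8 and 13.1 in the combination, with library 1 above library 3 in every group. The combination was 3.87-fold above DMSO (1.95 ± 0.32, adjusted p = 0.000552), and in K1, where replicates lay closer, the levels were 13.1 and 12.3, 16.9 and 15, 13.7 and 13.4, and 22.1 and 21.5 CPM (0.78 ± 0.08 for the combination against DMSO, adjusted p = 4.85e-06). ATF6, the sensor of the other branch, moved little: 109 and 112 CPM in DMSO and 134 and 137 in the combination in TPC1 (0.29 ± 0.07, adjusted p = 0.00555), and 68 and 65.8 against 88 and 83.1 in K1 (0.35 ± 0.05, adjusted p = 0.000134). Both ATF6 rises passed the test without reaching 1.5-fold. These are mRNA levels, and cleavage of the ATF6 protein was not measured. CREB3L2, a transcription factor cut from the ER membrane like ATF6, gave 0.11 ± 0.11 in TPC1 and 0.06 ± 0.06 in K1 (adjusted p = 0.413 and 0.415).

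The remaining calls of the combination against DMSO in TPC1 were DNAJB9, EDEM1, EDEM2, OS9 and XBP1 upward. DNAJB9, a co-chaperone that brings HSPA5 to IRE1 and is a known XBP1 target, rose 2.57-fold, from 5.53 and 5.67 to 13.6 and 15.3 CPM (1.36 ± 0.13, adjusted p = 1.76e-05). In K1 it was at 12.9 and 12.2 CPM in DMSO and 17.3 and 16.4 in the combination (0.43 ± 0.11, adjusted p = 0.0065). The 2 genes that fell in TPC1 were SDF2L1, a partner of the HSPA5 co-chaperones, from 30.7 and 34.1 to 17.4 and 18.6 CPM (-0.85 ± 0.09, adjusted p = 2.24e-05), and MANF, a secreted protein that binds HSPA5, from 61.1 and 77.3 to 38.7 and 43.6 CPM (-0.75 ± 0.13, adjusted p = 0.000807). Neither was lower in K1, where SDF2L1 gave 0.01 ± 0.07 and MANF 0.11 ± 0.05. The MANF call was lost without DMSO library 3 of TPC1 (-0.55). SYVN1 was called in K1 (58.9 and 55.6, then 92.3 and 84 CPM, 0.62 ± 0.06, adjusted p = 3.41e-06) but not without DMSO library 2 or combination library 1 (0.58 and 0.55), and in TPC1 it gave 0.56 ± 0.07 (adjusted p = 0.000129).

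**Figure D2:**
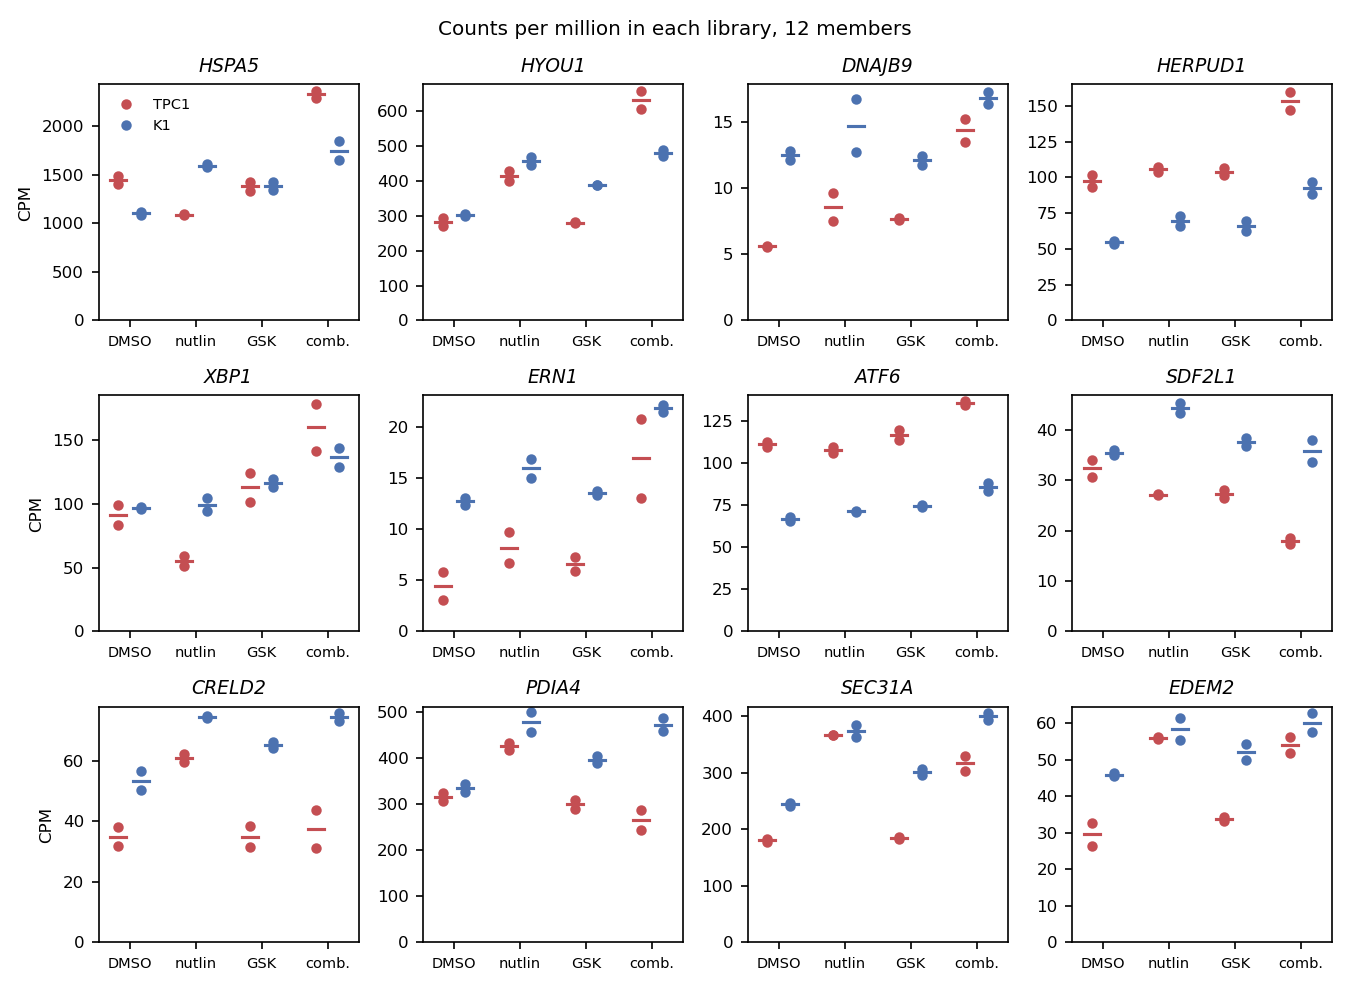
CPM (vertical axes, from 0) of 12 genes in each library of TPC1 (red) and K1 (blue) in DMSO, nutlin, GSK2830371 (GSK) and the combination (comb.); points are libraries and bars the mean of 2, scaled within each line. HSPA5 in TPC1 drops to 1082 and 1100 CPM in nutlin and reaches 2368 and 2296 in the combination, and CRELD2 and PDIA4 in TPC1 are highest in nutlin.

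What adding GSK2830371 to nutlin did bears most directly on the ATF4 response. In TPC1, 38 of 48 tested ATF4 targets rose against nutlin, with a median log2 fold change of 1.11, while 6.46% of all genes rose and 5.66% fell. The gene list holds known ATF4 targets outside the 36 and was drawn up with results of these cells known, so it is no independent evidence of its direction. CHAC1, which degrades glutathione and is a standard ATF4 readout, went from 10.3 and 9.69 CPM in nutlin to 299 and 340 in the combination (5.00 ± 0.10, adjusted p = 4.53e-08). DDIT3, the death-linked factor CHOP, went from 13.5 and 13.9 to 210 and 154 CPM (3.72 ± 0.15), ASNS, asparagine synthetase, from 54.2 and 56.6 to 222 and 272 CPM (2.16 ± 0.12), and TRIB3, an inhibitor of AKT, from 126 and 128 to 423 and 337 CPM (1.59 ± 0.11). The 4 listed targets that p53 is also known to drive (ATF3, SESN2, DDIT4 and GDF15) all rose, ATF3 the most, from 5.65 and 5.60 to 37.6 and 42.8 CPM (2.84 ± 0.14).

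Of the 36 ER genes in the same comparison, 5 rose and 3 fell, where 6.46% of all genes rose and 5.66% fell. Their median log2 fold change was -0.02, beside 0.01 over all genes. By adjusted p and any size, 9 rose and 6 fell, against 13.2% and 12.9% of all genes. The 5 that rose were XBP1, HSPA5, ERN1, DNAJB9 and HYOU1, and the 3 that fell were CRELD2, PDIA4 and SDF2L1. Calls thus went in both directions, as they did over all genes.

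XBP1, the factor that IRE1 activates by splicing (GRCh37 chr22:29190543-29196585, minus strand), showed the largest rise: 51.6 and 58.7 CPM in nutlin and 141 and 178 in the combination, 2.90-fold (1.53 ± 0.15, adjusted p = 0.000184). Gene counts add up spliced and unspliced forms, so the activity of IRE1 was not measured. In DMSO and GSK2830371 XBP1 stood at 83.7 and 99.4, and 101 and 124 CPM, so that nutlin was lowest, the combination highest and neither overlapped another group. HSPA5 rose 2.14-fold over nutlin (1.10 ± 0.08, adjusted p = 5.25e-05), from the lowest of its 4 groups to the highest. Both calls were kept with each library left out in turn. HERPUD1 gave 0.54 ± 0.08 (adjusted p = 0.00167), ATF6 0.33 ± 0.07, SERP1 0.34 ± 0.08 and SYVN1 0.31 ± 0.07, all with an adjusted p under 0.05 and under 1.5-fold.

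The other rises lost their calls in fits without single libraries, and those fits do not model the library number. DNAJB9 was at 7.53 and 9.68 CPM in nutlin and at 13.6 and 15.3 in the combination (0.73 ± 0.13, adjusted p = 0.00381), and at 0.58 without nutlin library 1. ERN1 gave 1.06 ± 0.31 (adjusted p = 0.0322) and was no longer called without combination library 1 (0.70), nutlin library 1 (1.34) or nutlin library 3 (0.80), or by DESeq2 (adjusted p = 0.0569). This fit does not model that ERN1 was higher in library 1 than in library 3 of every group. With the library number as a block and no library left out, ERN1, DNAJB9 and HYOU1 kept their calls. HYOU1 was at 430 and 401 CPM in nutlin (0.61 ± 0.08, adjusted p = 0.000993) and was under 1.5-fold without combination library 1 (0.55) or nutlin library 3 (0.56).

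Among the genes that fell, CRELD2, a secreted ER stress protein with isomerase activity, was at 59.6 and 62.3 CPM in nutlin and 31.3 and 43.7 in the combination (-0.70 ± 0.16, adjusted p = 0.0126), close to its DMSO levels of 31.7 and 37.9. PDIA4, a disulfide isomerase, went from 419 and 433 to 245 and 288 CPM (-0.68 ± 0.09, adjusted p = 0.00112), with 306 and 325 CPM in DMSO. SDF2L1 went from 27.1 and 27.3 to 17.4 and 18.6 CPM (-0.59 ± 0.09, adjusted p = 0.00146). The same direction, with an adjusted p under 0.05 but less than 1.5-fold, was seen for CALR (-0.56), HSP90B1, the ER form of HSP90 (-0.44), and PDIA6 (-0.43). Without combination library 1, PDIA4, SDF2L1 and CRELD2 were no longer called (-0.56, -0.55 and -0.48), and CRELD2 also lost its call without nutlin library 1 or 3 (adjusted p = 0.0519 and 0.0732). Thus CRELD2 and CALR rose with nutlin and were lower once GSK2830371 was added, the reverse order of XBP1 and HSPA5. In this order the later fall of CALR and the fall of HSPA5 with nutlin were under 1.5-fold. Both comparisons share the nutlin libraries, so a high or low nutlin library enters them with opposite signs. DNAJB9 and ERN1 were called higher with nutlin and again with the combination against nutlin. EDEM1, EDEM2, OS9, SEC61A1 and SEC31A rose with nutlin and were not called in either direction against it. Of these, SEC31A went from 366 and 367 CPM in nutlin to 303 and 330 in the combination.

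By branch in TPC1, 3 of 11 genes known to lean on ATF6 rose (HSPA5, HYOU1 and XBP1 itself) and 3 fell (CRELD2, PDIA4 and SDF2L1). The median of the 11 was -0.21. Of 13 that lean on XBP1, 1 rose (DNAJB9), and the median of the 13 was 0.11. Over all genes 6.46% rose and 5.66% fell, and the share of the 13 that rose is near that. Each list follows the branch usually named first, and many of these genes are known to respond to both factors. edgeR gave an adjusted p under 0.05 for 3 of the 13, DNAJB9, SYVN1 and SERP1, all higher, against 13.2% of all genes higher by that rule. In K1 edgeR and DESeq2 called none of either list. edgeR gave an unadjusted p under 0.05 for 3 higher and 2 lower of the 11 (median -0.00). It did so for 7 higher and 1 lower of the 13 (median 0.18). The shares of all genes by this looser rule are not given here, so neither count can be set against them. By role, the disulfide isomerases and lectin chaperones had a median of -0.37 (1 of 6 fell), the chaperones -0.14 (3 of 10 rose, 2 fell), the degradation genes 0.11, the translocon and COPII genes 0.06 and the sensors and factors 0.70 (2 of 4 rose). The 10 genes with an exact ERSE or ERSE-II were spread from -0.70 to 1.53, with 3 called higher (HSPA5, HYOU1 and XBP1) and 2 lower (CRELD2 and SDF2L1). The 22 genes with a promoter and neither motif ran from -0.68 to 1.06, with 2 called higher (DNAJB9 and ERN1) and 1 lower (PDIA4). These letters were thus found in promoters of genes that moved either way.

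In K1, 27 of 48 ATF4 targets rose against nutlin (median 0.70, with 1.16% of all genes higher and 1.52% lower), and CHAC1 went from 7.03 and 5.06 to 64.7 and 74.9 CPM. The 4 p53-linked targets rose here too, GDF15 the most, from 1.04 and 1.65 to 5.23 and 5.83 CPM (2.03 ± 0.22). None of the 35 ER genes was called by edgeR or DESeq2, and edgeR gave an unadjusted p under 0.05 for 14 higher and 3 lower. By adjusted p and any size 8 were higher and 1 lower, against 5.89% and 6.53% of all genes, with a median over the 35 of 0.08 beside 0.00 over all genes. The 8 were XBP1, ERN1, HERPUD1, ATF6, SEC61A1, SERP1, SSR1 and DERL1, and the lower one was SDF2L1 (-0.31 ± 0.07, adjusted p = 0.0126). XBP1 was at 104 and 94 CPM in nutlin and 144 and 129 in the combination (0.46 ± 0.07, adjusted p = 0.00076), ERN1 gave 0.45 ± 0.08 (adjusted p = 0.00335) and HERPUD1 0.41 ± 0.07 (adjusted p = 0.00257). Of the 9 that rose in TPC1 by adjusted p and the 8 in K1, 5 were the same genes (55.6% and 62.5%): ATF6, ERN1, HERPUD1, SERP1 and XBP1. The overlap over all genes by that rule is not given here. HSPA5, at 1616 and 1577 CPM in nutlin and 1849 and 1651 in the combination, did not pass (0.13 ± 0.06, adjusted p = 0.185).

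**Figure D3:**
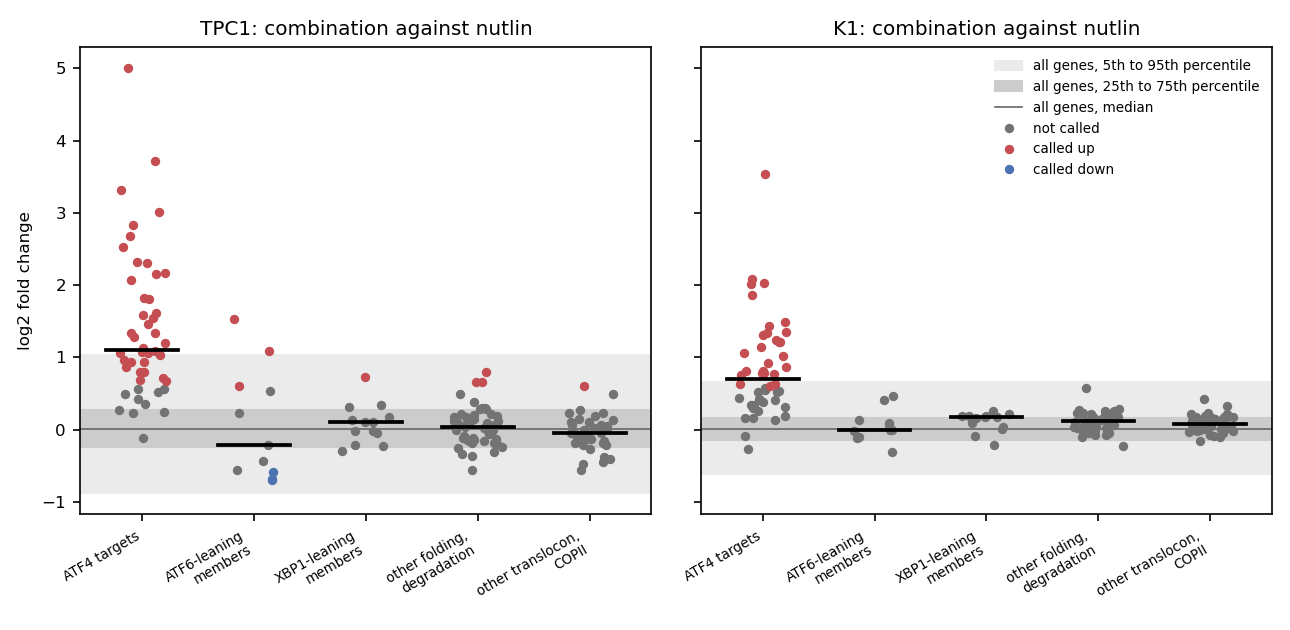
Log2 fold change of the combination against nutlin for each gene of 5 lists (points; red called higher, blue called lower, grey not called) in TPC1 and K1, with the list median as a black bar and grey bands for the 25th to 75th and 5th to 95th percentiles of all genes. ATF4 targets have medians of 1.11 and 0.70, and the ATF6- and XBP1-leaning genes have medians between -0.21 and 0.18.

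The ER genes outside the 36 gave further context. Of 49 other folding and degradation genes, 3 rose against nutlin in TPC1 (median 0.04), a share near the 6.46% of all genes, and in K1 (median 0.13) edgeR put 9 at an adjusted p under 0.05, all higher and all under 1.5-fold, beside 5.89% of all genes higher by that rule. Of 40 other translocon, signal processing and COPII genes, 1 rose in TPC1 (SEC63, a translocon partner, 98.0 and 98.9 CPM in DMSO, 61.9 and 64.6 in nutlin, 89.9 and 103 in the combination, 0.61 ± 0.08), and SEC63 gave 0.11 ± 0.06 in K1. The largest called rise among the first was DNAJC1, an ER J-domain protein, in TPC1 (9.95 and 11.4 CPM in nutlin, 16.7 and 20.5 in the combination, 0.80 ± 0.15). Of 17 tested other sensors, proteases and factors of the ER, 2 rose in TPC1 and 1 in K1, in both lines led by ATF4 itself, from 476 and 499 to 1007 and 1074 CPM in TPC1 (1.09 ± 0.09) and from 333 and 344 to 749 and 782 CPM in K1 (1.18 ± 0.06). EIF2AK3, which encodes PERK, gave -0.14 ± 0.09 (adjusted p = 0.284) in the TPC1 libraries and 0.38 ± 0.07 (adjusted p = 0.00387) in those of K1. Of 6 genes whose mRNA IRE1 is known to cut, 3 fell in TPC1, where 5.66% of all genes fell, the largest being SCARA3, a scavenger receptor (119 and 121 CPM, then 45.5 and 51.4, -1.31 ± 0.08), which had already fallen with nutlin alone (-1.29 ± 0.08). In K1, 5 of the 6 were tested, of which edgeR and DESeq2 called none and edgeR gave an unadjusted p under 0.05 for 1 higher and 2 lower, and SCARA3 was at most at 0.0539 CPM.

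Set against GSK2830371 alone, the combination called 8 of 36 genes higher and 2 lower in TPC1 (19.5% and 19% of all genes) and 4 of 35 higher and 0 lower in K1 (6.3% and 6.75%), where edgeR also gave no lower gene at an unadjusted p under 0.05 and DESeq2 called none lower. The 4 in K1 were ERN1 (0.68 ± 0.08), EDEM3 (0.66 ± 0.07), HSP90B1 (0.62 ± 0.06) and DNAJC10 (0.59 ± 0.06). EDEM3 went from 58.5 and 64.9 to 94.6 and 101 CPM and DNAJC10 from 142 and 157 to 219 and 231 CPM. These are 2 genes of low GC content (38.4% and 37.5% of the transcript), and with counts corrected for GC and length they gave 0.45 and 0.21, under the fold required. HSP90B1 was at 687 and 765 CPM in GSK2830371 and 1092 and 1143 in the combination, and gave 0.55 without GSK2830371 library 1, DNAJC10 0.52 without that library and 0.56 without combination library 2. In TPC1 the 8 were HSPA5, HYOU1, DNAJB9, EDEM2, OS9, SEC61A1, SEC31A and ERN1, between 0.68 and 1.36, and the 2 lower were MANF (-0.62) and SDF2L1 (-0.60). MANF was at -0.53 without combination library 1 and -0.48 without GSK2830371 library 3, and SDF2L1 at -0.55 without combination library 1 and -0.56 without GSK2830371 library 1, and by DESeq2 at -0.57.

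An interaction term asked whether the combination differed from the sum of both single drugs on the log2 scale. In TPC1 it was called positive for HSPA5, HYOU1 and XBP1 and negative for PDIA4, where 2.82% of all genes were positive and 3.5% negative. HSPA5 had the firmest value, 1.16 ± 0.11 (adjusted p = 0.00138), called with each library left out. XBP1 gave 1.23 ± 0.20 (adjusted p = 0.00953), and 1.15 without nutlin library 1 (adjusted p = 0.0519). HYOU1 (0.61 ± 0.11, adjusted p = 0.0147) and PDIA4 (-0.60 ± 0.13, adjusted p = 0.0253) each lost the call without any of 6 libraries, all but DMSO library 3 and combination library 3, with values from 0.56 to 0.67 for HYOU1 and from -0.65 to -0.49 for PDIA4. With the library number as a block CRELD2 was called as well (-0.71, adjusted p = 0.000388), as it was by DESeq2 (-0.69, adjusted p = 0.0255), with no filter on low counts (adjusted p = 0.00362) and with counts corrected for GC and length (adjusted p = 0.0163). Of the ATF4 targets, 26 of 48 were called positive in that line. In K1 the interaction was called for none of the 35 by edgeR or DESeq2, where 1.79% of all genes were called positive and 0.654% negative. By edgeR's adjusted p and any size, 2 of the 35 were positive and 4 negative, and by its unadjusted p 5 and 11. The shares of all genes by these looser rules are not given here, so these counts cannot be set against them. Among the ATF4 targets 14 of 48 were called positive, a count that was lower without nutlin library 2 or combination library 2.

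The lines were then compared directly in a fit of all 16 libraries. In DMSO, 11 of the 36 genes were higher in K1 and 4 lower, where 25% of 16738 genes were higher and 21.2% lower. Higher in K1 were ERN1 (1.55 ± 0.24), MANF (1.29 ± 0.11), DNAJB9 (1.14 ± 0.14), SEC24D, a COPII cargo adaptor (0.97 ± 0.08), EDEM1 (0.96 ± 0.09), DNAJC3, an inhibitor of PERK (0.86 ± 0.09), SEC61A1, DNAJC10, EDEM2, P4HB, the main disulfide isomerase, and CRELD2. Lower were HERPUD1 (-0.86 ± 0.09), CREB3L2 (-0.77 ± 0.08), ATF6 (-0.75 ± 0.06) and DERL3, which had 2 and 0 counts in K1 DMSO and 14 and 53 in TPC1 DMSO, too few for a fold. With counts corrected for GC and length, DNAJC10 gave -0.02 and DNAJC3, EDEM2 and SEC61A1 were just under the fold required (0.58, 0.51 and 0.57). CRELD2 and P4HB were no longer called without K1 DMSO library 1 (0.51 and 0.58) or TPC1 DMSO library 1 (0.45 and 0.51), and EDEM2 without the latter (0.45).

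The effect of nutlin differed between the lines for 4 genes, 3 more positive in K1 and 1 less, where 8.73% of all genes were more positive and 10.5% less. The K1 effect minus the TPC1 effect was 0.90 ± 0.11 for HSPA5 (adjusted p = 1.82e-05), 0.73 ± 0.18 for XBP1 (adjusted p = 0.00568), 0.72 ± 0.16 for MANF (adjusted p = 0.0023) and -0.60 ± 0.14 for EDEM2 (adjusted p = 0.00437). HSPA5 was lower with nutlin in TPC1 and higher in K1, and XBP1 was lower in TPC1 (-0.73) and at 0.03 in K1. Without TPC1 DMSO library 3, MANF and XBP1 were under the fold required (0.51 and 0.57), as was EDEM2 without K1 DMSO library 1 (-0.58), K1 nutlin library 1 (-0.53) or TPC1 DMSO library 1 (-0.44). With the TPC1 library number as a block, ERN1 was called too (-0.62 ± 0.16, adjusted p = 0.00378), beside -0.61 ± 0.33 (adjusted p = 0.194) without it.

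For the combination against nutlin the difference between lines was called for 4 genes, with 2.56% of all genes more positive in K1 and 2.56% less. HSPA5 gave -0.96 ± 0.11 (adjusted p = 9.38e-05) and XBP1 -1.07 ± 0.18 (adjusted p = 0.0017), both larger rises in TPC1. PDIA4 gave 0.67 ± 0.12 (adjusted p = 0.00316) and CRELD2 0.70 ± 0.19 (adjusted p = 0.0318), since both fell in TPC1 and gave -0.02 and -0.00 in K1. PDIA4 was at 0.55 without TPC1 combination library 1. CRELD2 was not called without any one of 7 of the 8 nutlin and combination libraries, with an adjusted p of 0.064 to 0.106. ERN1 and DNAJB9, called in TPC1 and not in K1, did not pass this test (-0.61 ± 0.31, adjusted p = 0.281, and -0.52 ± 0.18, adjusted p = 0.0945). This fit does not model that same-numbered TPC1 libraries deviate together. With the TPC1 library number as a block, an alternative chosen after seeing the data, the errors were smaller and both genes had an adjusted p under 0.05 at less than 1.5-fold (-0.57 ± 0.15, adjusted p = 0.0102, and -0.53 ± 0.15, adjusted p = 0.0235).

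**Figure D4:**
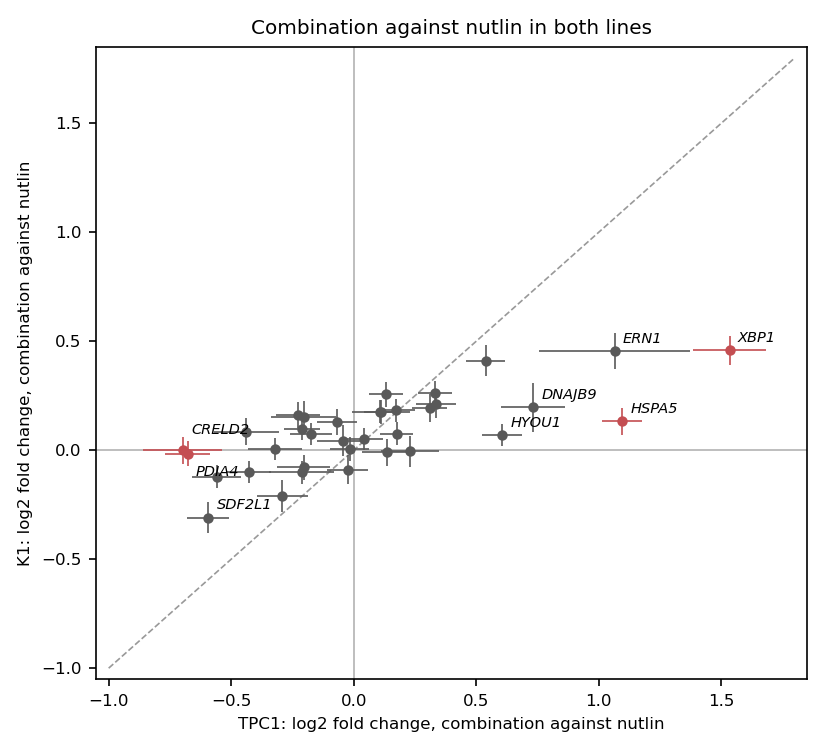
Log2 fold change of the combination against nutlin in TPC1 (horizontal) and K1 (vertical) for the 35 genes tested in both lines, with standard errors as bars; red genes differed between lines by the direct test, named genes were called in TPC1 and the dashed line marks equal change. XBP1 (1.53 in TPC1, 0.46 in K1) and HSPA5 (1.10 and 0.13) lie far below the dashed line, and PDIA4 and CRELD2 lie near 0 in K1.

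The other members gave smaller values. In TPC1 with the combination against DMSO, DNAJC3 gave -0.49 ± 0.10, PDIA6 -0.42 ± 0.09 and HSP90B1 -0.37 ± 0.13, each with an adjusted p under 0.05, and SEL1L, the scaffold of the degradation complex, 0.53 ± 0.12, and SSR1, a translocon-associated subunit, 0.52 ± 0.08. The membrane lectin CANX, whose product is a partner of CALR, gave 0.16 ± 0.08 in TPC1 and 0.37 ± 0.05 in K1 (adjusted p = 0.103 and 4.82e-05). DNAJB11, a co-chaperone of HSPA5, gave 0.07 ± 0.10 and 0.28 ± 0.06, PDIA3, an isomerase for glycoproteins, -0.04 ± 0.11 and 0.36 ± 0.05, and SEC61B, a translocon subunit, 0.06 ± 0.08 and 0.29 ± 0.05, each with an adjusted p under 0.05 in K1 and not in TPC1. DERL3, at 0.194 to 0.730 CPM in the TPC1 libraries, gave -0.85 ± 0.47 (adjusted p = 0.141), an error too wide to place it. DERL1 and DERL2, derlins of the degradation channel, gave -0.02 ± 0.07 and -0.02 ± 0.08 in TPC1 and 0.21 ± 0.05 and 0.09 ± 0.07 in K1. Genes with near-identical copies elsewhere in the genome, such as HSP90B1 and SEC61B, may have lost reads that map to more than 1 place, and their levels are uncertain to that extent.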

How the data were processed

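Poly(A) RNA of TPC1 and K1 cells was sequenced strand-specifically after 24 h in each of 4 treatments. Per the study's methods, the authors trimmed reads, aligned them to GRCh37 with TopHat2 (2.0.13 in the submitters' processing notes), dropped reads with low mapping quality, and assigned the rest to genes by strand with HTSeq (0.6.1). The deposited values are the authors' raw counts, and the table holds no normalized values. The study states that replicates were prepared independently, and the labels give no culture or date for a library.

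The 36 genes and all gene lists were chosen with earlier results of these data known. Genes that exceeded 0.1 CPM in 2 or more of a line's libraries were fitted per line, all 8 libraries together (edgeR 4.0.16 in R 4.3.3, TMM scaling, quasi-likelihood test, Benjamini-Hochberg adjustment over all genes). Differences between lines came from 1 fit of 16 libraries. Errors of log2 fold changes are standard errors. All 36 genes could be named, and those given per library were HSPA5, DNAJB9, HERPUD1, XBP1, ATF6, ERN1 and genes called within a line. Outside the 36 the named genes were CHAC1, DDIT3, TRIB3, ASNS, EIF2AK3 and the largest called rise and fall of each list in the combination against nutlin. Alternatives were DESeq2 (1.42.0) and its size factors, library size alone, other filters, correction for GC content and length (GENCODE 44 on GRCh37), a block for the library number (in the fit of both lines within TPC1, chosen after seeing the data), the compared groups alone, and each library left out, where a lone library was assumed to vary like the other groups. The scripts were tested on simulated data.

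Same-numbered TPC1 libraries deviated together: over 12308 genes the correlation of the difference between libraries 1 and 3 was 0.42 to 0.563 for the 6 pairs of treatments. The pairing comes from the data, since the labels do not say what a number marks. In K1 it ran from -0.316 to 0.328 over 12544 genes. At these depths ERN1 rests on 218 to 789 counts per TPC1 library, DNAJB9 on 206 to 922 and DERL3 on 7 to 53.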

Additional observations from a re-analysis of the deposited data

Results flagged for a closer look

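The nutlin effect and the effect of adding GSK2830371 to nutlin were compared between the lines for each of the 36 genes, and 8 differences passed the direct test. For nutlin against DMSO, the effect in K1 minus that in TPC1 was 0.90 for HSPA5, 0.73 for XBP1, 0.72 for MANF and -0.60 for EDEM2 on the log2 scale. Over all genes 8.73% were more positive in K1 and 10.5% less, and the 36 genes exceeded neither share. For the combination against nutlin, the difference was -0.96 for HSPA5, -1.07 for XBP1, 0.67 for PDIA4 and 0.70 for CRELD2, where 2.56% of all genes were more positive and 2.56% less. Both sets share the nutlin libraries of each line, so a high or low nutlin library enters them with opposite signs. Growth medium and line cannot be told apart in these differences, and the part of the wider spread of depth in TPC1 was not tested. With 2 libraries in a group no single library could be tested as standing apart.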

How the results depend on the processing

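With 2 libraries in a group, 1 library can decide a call. With each library left out, the lone sample assumed to vary like the other groups, the number of the 36 genes called in TPC1 was 4 to 10 for the combination against nutlin (8 with all libraries) and 1 to 6 for the interaction (4). In K1 it was 0 to 3 for nutlin against DMSO (2), where leaving out nutlin library 2 gave 0, and 2 to 4 for the combination against GSK2830371 (4). Between lines it was 2 to 6 for the nutlin effect (4) and 2 to 6 for the combination against nutlin (4). For the combination against nutlin in TPC1 the count was 4 without combination library 1 and 5 without either nutlin library. For the interaction it was 1 without nutlin library 1 and 2 without DMSO library 1, combination library 1, nutlin library 3 or either GSK2830371 library. The lowest count of 2 came without K1 GSK2830371 library 1 for the combination against GSK2830371, without TPC1 DMSO library 3 for the nutlin difference and without TPC1 combination library 1 for the other difference between lines. The cause was not tested.

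With the library number as a block, the count for GSK2830371 against DMSO in TPC1 was 1 instead of 0 (also 1 with the GC and length correction), and the interaction gave 5 instead of 4. CRELD2, the fifth gene, was also called by DESeq2, with no filter and with the GC and length correction. No other call within TPC1 changed with the block. In the fit of both lines a block within TPC1, chosen after seeing the data, gave 5 instead of 4 for the nutlin effect, adding ERN1, and changed no other call. In K1, where the pairing of numbers did not hold, the block left the counts at 2, 0, 7, 0 and 4 for nutlin, GSK2830371 and the combination against DMSO and the combination against nutlin and against GSK2830371.

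Under the GC and length correction DNAJC10, called higher in K1 DMSO, gave -0.0169. EDEM2's difference in the nutlin effect was -0.58 by DESeq2 and its size factors and -0.55 by library size alone or filterByExpr, all under 1.5-fold. By library size alone ERN1 with nutlin in TPC1 had an adjusted p of 0.057, EDEM2 against GSK2830371 in TPC1 gave 0.58, the HYOU1 interaction gave 0.55, and the median of all genes for the combination against GSK2830371 in TPC1 moved to -0.11. The median log2 fold change of the 36 genes moved by more than the spread between libraries in 45 cases of 271, among them the combination against DMSO in TPC1 (0.218 to 0.285 where it moved, 0.14 reported) and against nutlin in K1 (0.12, 0.08 reported). The count of ATF4 targets called higher moved by over 1.5 times in 12 of 271, none of them for the combination against nutlin within a line, and the K1 interaction gave 22 with no filter (14 reported). Over all alternatives and called genes, 1431 values kept their direction and side of the threshold, 79 did not pass it and 1, DNAJC10, reversed.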
